A study of Homo sapiens with 4 samples.

Results

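Aminoacyl-tRNA synthetases load each amino acid onto its matching tRNA, the step that supplies ribosomes with their building blocks. Human cells keep one set of these enzymes for the cytosol and another, also encoded in the nucleus, for the mitochondria. The messages of 35 synthetases were examined among the 16376 genes of the deposited table, chosen by symbol alone: 19 of the cytosolic set, whose names end in 1 or are FARSA and FARSB, and 16 of the mitochondrial set, whose names end in 2. All 35 were found under the listed symbols and all 35 passed the filter on low values. The aspartyl enzymes are not in the list and were not analysed here.

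The cells were LASCPC-01, a single human neuroendocrine prostate cancer (NEPC) line made by expressing NMYC together with activated AKT1, given as WT in the labels. RNA was sequenced from 2 PBS-treated libraries (the control) and from 2 libraries treated with fluoxetine, an antidepressant that blocks serotonin reuptake. The labels place all 4 at day 3 and give no dose, the study's text names 5 µM for 48 h, and the titles of the fluoxetine libraries carry the letters PP where their treatment field names the drug. Nothing states that the replicates came from separate cultures, so p-values measure the spread between these libraries, which may be technical. In bulk RNA, fewer cells of a type and less RNA per cell cannot be told apart.

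Values are FPKM, fragments divided by gene length and by sequencing depth. Read numbers solved from the FPKM put the mapped fragments between 32873603 and 34831389 per library, and the synthetases between 394 and 16096 fragments each. Of the 9 neuroendocrine prostate markers, 7 had a mean of at least 1 FPKM, MYCN, KRT8 and KRT18 among them, whereas CHGA and SYP were below that level. SYP and ENO2 had the largest differences of that list, at log2 fold changes of -0.54 and -0.47 (adjusted p of 0.706 and 0.373). SYP had 0.44 and 0.594 FPKM with PBS and 0.629 and 0.142 FPKM with fluoxetine, so its groups overlapped. The fold change of SYP (standard error 0.43) rests on the low value of fluoxetine replicate 2. ENO2 had 2.76 and 3.1 FPKM with PBS and 2.07 and 2.1 FPKM with fluoxetine, without overlap. The summed FPKM of the fibroblast list was 2.85 to 2.96 with PBS and 1.93 to 2.81 with fluoxetine, that of the immune list 2.85 to 4.14 and 2.78 to 3.64, and that of the endothelial list 0.205 to 0.218 and 0.105 to 0.17. COL1A1 and CD68 were the members of these 3 lists above 1 FPKM, and PECAM1 and CD3E were at or near 0. Longer genes tended to read lower in fluoxetine replicate 1 (correlation of log2 length with the deviation from the mean, across genes, -0.28) and higher in PBS replicate 2 (0.19).

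Many cytosolic synthetase genes are known targets of ATF4, the factor that cells make when amino acids run short or the endoplasmic reticulum is stressed. ATF4 with a C/EBP partner binds an element that contains TGATGNAA, with N for any base. The 300 bases around the start of each gene in RefSeq (GRCh38.p14, 250 before the start and 50 after it) were searched on both strands, for the 30 synthetases that matched the table by symbol. LARS1, VARS1, YARS1, AARS2 and VARS2 were not matched. TGATGNAA was found in 6 of 16 cytosolic windows (37.5%) and in 1 of 14 mitochondrial windows, that of YARS2 (7.14%), beside 1.95% of the windows of 12964 listed genes. All 6 cytosolic matches had the spelling TGATGCAA or its complement TTGCATCA, which 0.563% of all windows hold. This single spelling was looked up after the matches were seen.

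The 6 sites are shown because the results return to these synthetases beside other genes of the amino acid response. Each is given 5′ to 3′ on the strand of the gene, with the motif in capitals and 11 bases on either side, and the site of CHAC1, an ATF4 target outside the family, follows for comparison.
AARS1 (chr16:70289675-70289704, minus strand): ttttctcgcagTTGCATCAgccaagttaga
CARS1 (chr11:3057407-3057436, minus strand): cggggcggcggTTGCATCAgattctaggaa
IARS1 (chr9:92293692-92293721, minus strand): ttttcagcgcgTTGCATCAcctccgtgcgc
MARS1 (chr12:57488053-57488082, plus strand): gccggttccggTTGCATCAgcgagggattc
NARS1 (chr18:57621804-57621833, minus strand): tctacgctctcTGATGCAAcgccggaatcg
TARS1 (chr5:33440956-33440985, plus strand): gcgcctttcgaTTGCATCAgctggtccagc
CHAC1 (chr15:40953251-40953280, plus strand): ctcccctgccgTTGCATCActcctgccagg
In 5 of the 6 synthetases the first base of the motif lay within 20 bases of the annotated start, and in AARS1 it lay at -187, where negative positions are before the start. NARS1 carries the motif in the opposite orientation to the other 5. A match of letters is a description and not evidence that a factor is bound.

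No synthetase passed the test between fluoxetine and PBS. At an adjusted p under 0.05 from limma, 0 of 35 were called, where 0.237% of the 12663 genes tested were, 0.213% lower and 0.0237% higher in fluoxetine, and 0 of 35 had an unadjusted p under 0.05, where 8.51% of the genes tested did. limma voom on the solved reads called none of the 35 either. The log2 fold changes ran from -0.07 for LARS1 to 0.16 for PARS2, with standard errors of 0.07 to 0.17 and adjusted p-values of 0.613 to 0.992. A p that misses the threshold does not show that levels were equal, so the intervals matter here. The 95% interval of every one of the 35 fold changes lay inside 1.5-fold in both directions. The widest belonged to FARS2, the mitochondrial phenylalanyl enzyme with the fewest fragments, from -0.33 to 0.40, or 0.798- to 1.32-fold.

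**Figure D1:**
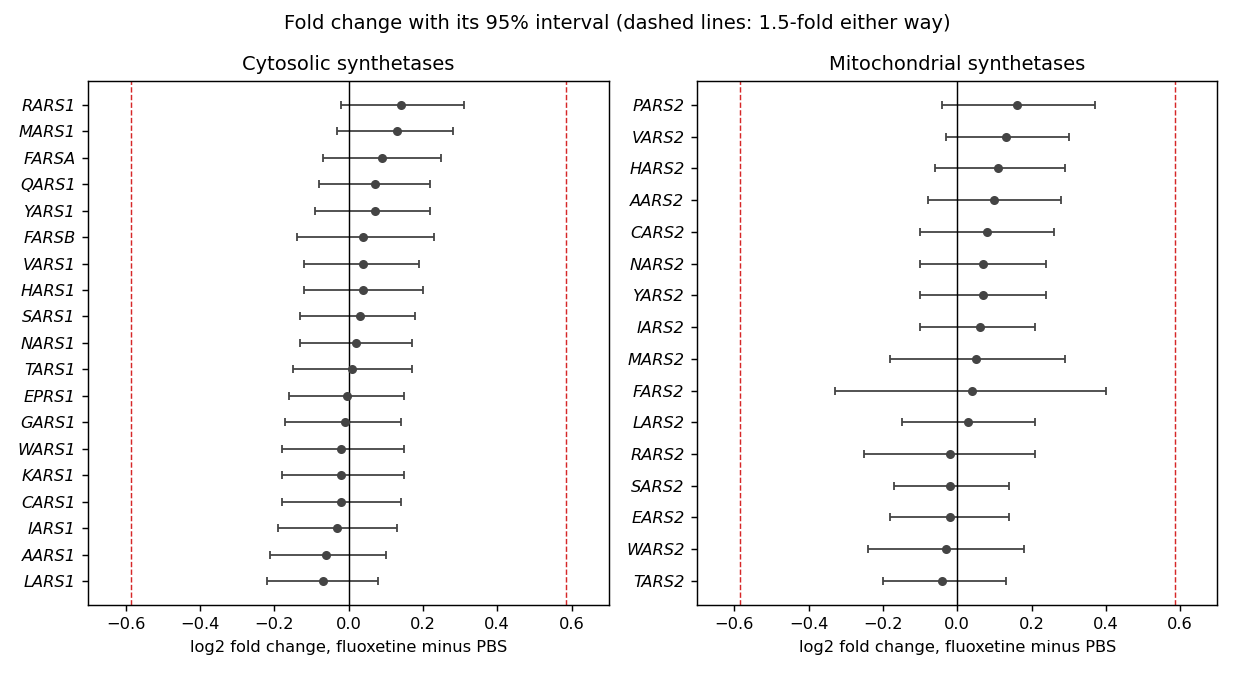
Log2 fold change of each synthetase, fluoxetine minus PBS, on log2(FPKM + 0.1), cytosolic on the left and mitochondrial on the right. Points are the limma estimates from 2 libraries a group, bars their 95% intervals and dashed lines a 1.5-fold change either way. All 35 intervals cross 0 and none reaches a dashed line.

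Among the cytosolic enzymes the largest difference was in RARS1, which charges arginine (chromosome 5 of GRCh38, 168486445 to 168519299 in GENCODE 29). Its PBS values were 52.5 and 53.9 FPKM and its fluoxetine values 62.1 and 55.6 FPKM. The groups did not overlap, but fluoxetine replicate 1 stood well above the other 3 libraries. The log2 fold change was 0.14 (standard error 0.08, 95% interval -0.02 to 0.31, adjusted p = 0.613), and with 1 library left out it ranged from 0.06 to 0.22.

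MARS1, the methionyl enzyme (chromosome 12, 57475445 to 57517569), had 114.1 and 109.1 FPKM with PBS and 121.1 and 122.7 FPKM with fluoxetine. Both fluoxetine libraries were above both PBS libraries, with a log2 fold change of 0.13 (standard error 0.07, 95% interval -0.03 to 0.28, adjusted p = 0.614). Its exons share bases in the annotation with DDIT3 and ARHGAP9 on the opposite strand. FARSA, the catalytic subunit of the phenylalanyl enzyme, had 121.2 and 126.0 FPKM with PBS and 134.2 and 129.0 FPKM with fluoxetine (log2 fold change 0.09, standard error 0.07, adjusted p = 0.707). QARS1, which charges glutamine, was nearly level within each group, at 111.1 and 111.6 FPKM and then 116.9 and 116.9 FPKM (log2 fold change 0.07, standard error 0.07, adjusted p = 0.768). Neither gene had overlapping groups. YARS1, the tyrosyl enzyme, had 102.6 and 104.3 FPKM with PBS and 108.3 FPKM in both fluoxetine libraries (log2 fold change 0.07, standard error 0.07, adjusted p = 0.783).

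On the other side of 0, LARS1, the leucyl enzyme, which is also known as a leucine sensor upstream of mTORC1, had 57.8 and 58.6 FPKM with PBS and 55.6 and 55.5 FPKM with fluoxetine. Its groups did not overlap, and the log2 fold change of -0.07 (standard error 0.07, 95% interval -0.22 to 0.08) had an adjusted p of 0.774. AARS1 and CARS1, the alanyl and cysteinyl enzymes, were the other cytosolic members with both fluoxetine libraries lowest, at log2 fold changes of -0.06 and -0.02. The remaining 11 cytosolic members overlapped between the groups, among them SARS1, NARS1, TARS1, VARS1, GARS1, IARS1, KARS1, HARS1 and FARSB, which charge serine, asparagine, threonine, valine, glycine, isoleucine, lysine, histidine and, with FARSA, phenylalanine, at log2 fold changes of -0.03 to 0.04. WARS1, the tryptophanyl enzyme that interferon gamma is known to induce, had 28.6 and 27.0 FPKM with PBS and 26.8 and 28.1 FPKM with fluoxetine. The bifunctional EPRS1, which joins glutamate and proline charging in 1 protein, had the smallest log2 fold change of all 35, -0.004 (95% interval -0.16 to 0.15).

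Over the 19 cytosolic members the median log2 fold change was 0.02, with 11 above 0 and 8 below, and the median of all genes tested was -0.02. The sign of the cytosolic median turned under rescaling to TPM and under quantile normalization, to -0.03 in both. Both fluoxetine libraries were above both PBS libraries in 5 members and below in 3, where 16.7% and 24.8% of all genes tested were. Fluoxetine replicate 1 exceeded replicate 2 for 16 of the 19 cytosolic members, as for 49.4% of all genes tested. Fluoxetine replicate 1 is the library with the strongest relation to gene length. With that trend removed in each library the cytosolic median was 0.00 and the mitochondrial median 0.06. Whether gene length accounts for the difference between these replicates was not tested.

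The multisynthetase complex binds a group of these enzymes into 1 particle, of which EPRS1, IARS1, KARS1, LARS1, MARS1, QARS1 and RARS1 were measured. Of these 7, 3 had a log2 fold change above 0 and 4 below, with a median of 0.00. Its 3 scaffold proteins were not called, where 0.237% of all genes tested were. AIMP1 had 14.9 and 14.4 FPKM with PBS and 16.2 and 15.7 FPKM with fluoxetine (log2 fold change 0.12, adjusted p = 0.641), AIMP2 had a log2 fold change of -0.08 (adjusted p = 0.741), and EEF1E1 one of 0.04.

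Synthetases fall into 2 classes of unrelated fold, and the median log2 fold change was 0.04 over the 19 class I members and 0.03 over the 16 class II members. EPRS1 was counted in class I only, with the glutamyl enzyme EARS2, although it also charges proline, as the class II enzyme PARS2 does.

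In the mitochondrial set, PARS2, which charges proline (chromosome 1, 54756898 to 54764514), had the largest log2 fold change of all 35 members. Its 4 values were 6.60 and 6.41 FPKM with PBS and 7.22 and 7.38 FPKM with fluoxetine, and both fluoxetine libraries were the higher. That difference, 0.16 on the log2 scale (standard error 0.09, 95% interval -0.04 to 0.37), had an adjusted p of 0.619 and stayed between 0.14 and 0.18 with 1 library left out. VARS2, the valyl enzyme (chromosome 6, 30908242 to 30926459), had 20 and 19.9 FPKM with PBS and 21.8 and 22 FPKM with fluoxetine (log2 fold change 0.13, standard error 0.07, adjusted p = 0.614). The replicates of VARS2 lay closer together than the groups did. It shares 1858 exon bases on the same strand with GTF2H4 in the annotation, a gene with 19.3 and 20 FPKM with PBS and 20.2 and 20.6 FPKM with fluoxetine, so fragments of the 2 genes may not be separated fully.

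HARS2, the histidyl enzyme, had 21.8 and 19.9 FPKM with PBS and 22.8 and 22.4 FPKM with fluoxetine (log2 fold change 0.11, standard error 0.08, adjusted p = 0.668). AARS2, the alanyl enzyme, had 12.2 and 11.6 FPKM with PBS and 12.7 and 12.8 FPKM with fluoxetine (log2 fold change 0.10, standard error 0.08, adjusted p = 0.724). NARS2, for asparagine, and IARS2, for isoleucine, were the other 2 of the 6 mitochondrial members whose fluoxetine libraries were both the higher, at 0.07 and 0.06. NARS2 had 17.8 and 17 FPKM with PBS and 18.2 and 18.4 FPKM with fluoxetine (standard error 0.08, adjusted p = 0.789). CARS2, the cysteinyl enzyme, at 26.3 and 23.6 FPKM with PBS and 27.3 and 25.4 FPKM with fluoxetine, overlapped between the groups (log2 fold change 0.08, standard error 0.08, adjusted p = 0.775). MARS2 had uneven control values, 20.7 and 16 FPKM, beside 19.2 and 18.5 FPKM with fluoxetine. The log2 fold change, 0.05, ran from -0.13 to 0.24 as single libraries were left out. TARS2, WARS2, EARS2, RARS2 and SARS2 had log2 fold changes below 0, the lowest -0.04 in TARS2. LARS2 and YARS2 had 0.03 and 0.07, and their groups overlapped.

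The median of the 16 mitochondrial members was 0.05, with 11 above 0 and 5 below. No member had both fluoxetine libraries below both PBS libraries, where 24.8% of all genes tested did, and 6 had both above, where 16.7% did. PBS replicate 1 was above PBS replicate 2 for 12 of the 16, as for 46.7% of all genes tested. The median was 0.11 without PBS replicate 1 and 0.01 without PBS replicate 2. The cytosolic median less the mitochondrial one was -0.03, within the pooled SD of 0.063 between replicate libraries, and with 1 library left out it ranged from -0.09 to 0.01. Under quantile normalization it was -0.09, outside that SD, and with the gene length trend removed it was -0.06. This difference has no test, since members of a list are not replicates.

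The enzymes differed far more from each other than between treatments. Mean levels over the 4 libraries ran from 127.6 FPKM for FARSA to 2.01 FPKM for FARS2, a 63.6-fold range. With reads divided by the longest coding transcript of each gene in GENCODE 29 instead, the extremes were MARS1 at 112.4 and PARS2 at 6.93, a 16.2-fold range. The cytosolic median was 96.1 and 93.7 FPKM with PBS and 96.3 and 93.8 FPKM with fluoxetine, and the mitochondrial median was 20.6 and 19.5 FPKM and then 20.2 and 21.4 FPKM. The ratio of the 2 medians was 4.67 and 4.80 with PBS and 4.77 and 4.39 with fluoxetine. In each library the 35 genes held about the same share of all FPKM, between 0.497% and 0.511%.

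FARSA, MARS1, QARS1, KARS1 and YARS1 headed the order, and 16 of the 19 cytosolic members were above every mitochondrial one. The exceptions were WARS1, CARS1 and FARSB. On the longest coding transcripts 14 were, since CARS2 was then the highest mitochondrial member at 55.9, above RARS1 at 55.4 and HARS1 at 27.5. KARS1 and GARS1 make both the cytosolic and the mitochondrial lysyl and glycyl enzymes, so their 112.3 and 98.6 FPKM serve 2 compartments. The highest mitochondrial members were IARS2 at 41.9 FPKM and SARS2 at 35.6 FPKM, and the lowest were FARS2 and RARS2, the latter at 6.31 FPKM. This order also turned on the longest coding transcripts, where IARS2 (41.5) was below CARS2, and PARS2 (6.93) was below FARS2 (7.86) and RARS2 (13.9). IARS2 had 41.6 and 40.6 FPKM with PBS and 43 and 42.4 FPKM with fluoxetine, and FARS2 had 2.27 and 1.71 FPKM and then 1.92 and 2.14 FPKM. SARS2 had 35.4 and 36.2 FPKM with PBS and 35.7 and 35.2 FPKM with fluoxetine (log2 fold change -0.02, standard error 0.07, adjusted p = 0.968). RARS2 had 6.44 and 6.26 FPKM with PBS and 6.68 and 5.88 FPKM with fluoxetine (log2 fold change -0.02, standard error 0.10, adjusted p = 0.974). Of the 34 neighbours in this order, 22 overlapped in their 4 values, so the ranks of such neighbours are not separated. From YARS1 down to AARS1 each gene overlapped with the next. Genes further apart in that run can still be separated, as YARS1 (102.6 to 108.3 FPKM) was from AARS1 (89 to 95 FPKM).

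Levels in FPKM depend on the gene length by which the fragments were divided, and for a few members that length matters. FARSA and FARSB are the 2 kinds of subunit of the cytosolic phenylalanyl enzyme, which holds equal numbers of each. FARSB had 13.5 and 12.5 FPKM with PBS and 13.6 and 13 FPKM with fluoxetine, and FARSA was 9.01- and 10.1-fold above it with PBS and 9.83- and 9.90-fold with fluoxetine. The length behind the FPKM of FARSB was 9191 bases, however, against 3369 bases for its longest coding transcript in GENCODE 29. On the longest coding transcripts of both genes the ratio was 3.14. For FARS2 the same lengths were 6626 and 1692 bases, for RARS2 3997 and 1818 bases, and for CARS2 4092 and 1879 bases. These lengths do not enter a fold change between libraries.

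Partners for the same amino acid were set side by side in 17 pairs, which share EPRS1 and FARS2 in some cases. The cytosolic enzyme was above its mitochondrial partner in every library for 16 of them, with a median ratio of 5.06. Cysteine was the exception. CARS1 had 20.1 and 20.1 FPKM with PBS and 20 and 19.6 FPKM with fluoxetine, below CARS2 in all 4 libraries, with ratios of 0.763 and 0.853 and then 0.733 and 0.771. On the longest coding transcripts this ratio was 0.447, and the median over the 17 pairs was 3.97. The widest ratio was FARSA over FARS2, at 53.5 and 73.6 with PBS and 70.0 and 60.4 with fluoxetine, and it was 14.5 on the longest coding transcripts.

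Between treatments these ratios differed by -0.17 to 0.16 on the log2 scale. EPRS1 over PARS2 had ratios of 11 in both PBS libraries and of 9.87 and 9.61 with fluoxetine, and AARS1 over AARS2 had 7.81 and 7.83 and then 7.11 and 6.94. In both pairs the fluoxetine libraries were the lower. RARS1 over RARS2 had 8.15 and 8.61 with PBS and 9.30 and 9.45 with fluoxetine, the higher 2. In all, 5 of the 17 pairs had both fluoxetine ratios below both PBS ratios and 1 had both above. For single genes, 24.8% of all genes tested were lower without overlap and 16.7% higher. The share for ratios of other gene pairs was not computed, and some of the 17 pairs share a gene, so this count gives no direction. These ratios were not tested, and 2 libraries against 2 cannot give an exact permutation p below 0.33.

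HARS1 and HARS2 are a case in which both enzymes for an amino acid are read from 1 stretch of DNA, in opposite directions. Their RefSeq starts lie 85 bases apart on chromosome 5, and the stretch between them is printed because it is upstream of both by these starts. In GENCODE 29 HARS1 extends to 140691862 and HARS2 begins at 140691426, so the end of the stretch lies within both genes. The stretch is given on the plus strand, the strand of HARS2. Capitals mark CCGGAAG on either strand, a core that ETS factors such as GABPA are known to bind.
HARS1 to HARS2 (chr5:140691370-140691455, plus strand): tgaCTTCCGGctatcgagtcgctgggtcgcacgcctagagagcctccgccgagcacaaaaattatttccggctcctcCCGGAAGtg
The motif CCGGAAG was in 14 of 30 synthetase windows (46.7%) and in 16.4% of all windows. From this shared stretch HARS1 had 50.2 and 47.1 FPKM with PBS and 51.3 and 48.9 FPKM with fluoxetine, a ratio over HARS2 of 2.30 and 2.37 and then 2.25 and 2.19. On the longest coding transcripts the ratio was 1.29. Their log2 fold changes were 0.04 and 0.11. The 2 genes share 437 exon bases on opposite strands in GENCODE 29, and whether the counting used the strand is not given in the sources used here.

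A window shared with a gene on the other strand was found for 8 of the 30 synthetases (26.7%) and for 10.2% of all listed genes. Besides HARS1 and HARS2, these were KARS1 with TERF2IP, WARS1 with WDR25, EARS2 with UBFD1, FARS2 with LYRM4, RARS2 with ORC3 and SARS2 with MRPS12. SARS2 charges serine in the mitochondrion and MRPS12 is a protein of the mitochondrial ribosome. SARS2 had a mean of 35.6 FPKM and MRPS12 one of 60.4 FPKM, with log2 fold changes of -0.02 and 0.11. No partner had an adjusted p under 0.05, where 0.237% of all genes tested did.

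Of the other motifs searched, CACGTG, the E-box of MYC proteins, was in 1 of 16 cytosolic windows (IARS1) and in 3 of 14 mitochondrial windows (CARS2, EARS2 and MARS2), beside 9.43% of all windows. The core of the NRF1 site was in 6 of 30 synthetase windows, beside 9.80%. The core of the interferon-stimulated response element was in that of EARS2 alone, beside 2.93%. These motifs may overlap one another in a window.

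Genes outside the family that respond to a lack of amino acids were listed beside the synthetases. ATF4 itself had 76.0 FPKM in both PBS libraries and 80 and 72.7 FPKM with fluoxetine (log2 fold change 0.005, 95% interval -0.16 to 0.17). Of 26 tested genes of this list, 1 was called lower, STC2, and none was called higher, where 0.213% and 0.0237% of all genes tested were. An unadjusted p under 0.05 was found for 7 of the 26, where 8.51% of all genes tested had one. STC2, a secreted glycoprotein induced by stress of the endoplasmic reticulum, had 24.7 and 22.9 FPKM with PBS and 17.3 and 17.5 FPKM with fluoxetine, with both treated libraries well below the controls. Its log2 fold change was -0.45 (standard error 0.08, 95% interval -0.62 to -0.28, adjusted p = 0.0464). The call was lost under 10 of 16 alternatives, among them each library left out in turn, where the adjusted p was 0.353 and 0.405 without PBS replicates 1 and 2 and 0.262 and 0.201 without fluoxetine replicates 1 and 2. Over all 16 the log2 fold change lay between -0.50 and -0.39.

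CHAC1, an enzyme that breaks down glutathione and carries the same TTGCATCA as the 6 synthetases above, had 6.11 and 6.01 FPKM with PBS and 4.96 and 4.16 FPKM with fluoxetine. The groups did not overlap, and the log2 fold change of -0.41 (standard error 0.11, 95% interval -0.66 to -0.16) had an adjusted p of 0.329. Over the 6 synthetases with that motif the median log2 fold change was -0.01, with 3 above 0 and 3 below and single values between -0.06 for AARS1 and 0.13 for MARS1. The 10 cytosolic members with a window and without the motif had a median of 0.03. Values for DDIT4, ATF3, SESN2 and CEBPG were also lower in both fluoxetine libraries, at log2 fold changes of -0.30, -0.30, -0.24 and -0.24 (adjusted p of 0.464, 0.538, 0.462 and 0.535), and SLC3A2, the heavy chain of amino acid transporters, was the response gene with an unadjusted p under 0.05 on the other side. It had 78.2 and 63.6 FPKM with PBS and 82.5 and 81 FPKM with fluoxetine (log2 fold change 0.21, standard error 0.09, adjusted p = 0.555), and its window also holds TGATGNAA. In all, TGATGNAA was in 5 of the 22 response genes with a window, ATF3, ASNS, CHAC1, SLC3A2 and SLC7A1. Their median log2 fold change was -0.1, with 1 above 0 and 4 below. Of the enzymes that make asparagine, serine and one-carbon units, ASNS, PSAT1, PHGDH, PSPH and MTHFD2 overlapped between the groups, and SHMT2 had 221.1 and 222.1 FPKM with PBS and 202.6 and 207.7 FPKM with fluoxetine (log2 fold change -0.11, adjusted p = 0.648). The list as a whole had a median of -0.06, with 12 of 26 genes not overlapping and lower (46.2%, beside 24.8% of all genes tested) and 2 not overlapping and higher (7.69%, beside 16.7%).

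Downstream of charging, translation factors were also not called, where 0.237% of all genes tested were. An unadjusted p under 0.05 was found for 2 of the 6 cytosolic elongation factors, EEF1A2 and EEF1D. It was found for 0 of the 10 mitochondrial factors, where 8.51% of all genes tested had one. Of the 6 cytosolic elongation factors, which carry charged tRNA to the ribosome and move it along, EEF1A2 had 4.63 and 5.06 FPKM with PBS and 2.84 and 3.95 FPKM with fluoxetine (log2 fold change -0.52, standard error 0.15, adjusted p = 0.356), and EEF1D had a log2 fold change of 0.18 (adjusted p = 0.541). EEF1A1, at 2742.7 and 2634.2 FPKM with PBS and 2955.7 and 2765.5 FPKM with fluoxetine, is the main form in these cells by level. The 10 mitochondrial translation factors had a median log2 fold change of 0.05, the same as the mitochondrial synthetases, with TSFM at 0.15 and MTRF1L at 0.11 the largest (adjusted p of 0.642 and 0.737).

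Mitochondria have no separate glutaminyl enzyme and instead convert glutamyl-tRNA with an amidotransferase made of QRSL1, GATB and GATC. Its 3 subunits had log2 fold changes of 0.02, 0.07 and -0.002, and all 3 overlapped between the groups. The proofreading enzymes DTD1 and DTD2, which remove D-amino acids from tRNA, had log2 fold changes of 0.17 and 0.12 (adjusted p of 0.613 and 0.703), and AARSD1 was below the level tested.

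Among 13 genes of tRNA maturation and export, TSEN54, a subunit of the endonuclease that removes tRNA introns, had 15.0 and 16.3 FPKM with PBS and 18.9 and 19.8 FPKM with fluoxetine. Its log2 fold change of 0.31 (standard error 0.08, 95% interval 0.13 to 0.49) had an adjusted p of 0.323, and HSD17B10, a subunit of mitochondrial RNase P, followed at 0.18 (adjusted p = 0.543). None of the 13 was called, where 0.237% of all genes tested were, and 2 had an unadjusted p under 0.05, where 8.51% did. A log2 fold change above 0 was found for 11, where 43.5% of all genes tested had one. The interferon gamma list, which bears on WARS1, had 4 tested genes and none called, where 0.237% of all genes tested were. Of the 4, 1 had an unadjusted p under 0.05 from limma, IRF1, where 8.51% of all genes tested did. IRF1 had the largest log2 fold change there, -0.44 (adjusted p = 0.329), and TAP1 followed at 0.08.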

How the data were processed

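Per the labels, RNA of LASCPC-01 cells was sequenced as paired-end reads, from 2 libraries of PBS and 2 of fluoxetine. The submitters' processing notes name fastp, HISAT2, HTSeq and GRCh38 without versions, and the annotation is not given in the sources used here. The authors deposited FPKM, 1 value per gene and library, and named DESeq2, which needs counts.

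Whole reads and gene lengths were solved from the FPKM, with a read taken as whole within 0.001, for 16076 of 16080 genes above 0. The depth rests on 35 genes whose exon length in GENCODE 29 gave the same value. True reads can be multiples of those solved, and for RARS1 the double was taken, which gives an annotated transcript length. Intervals cover the spread of 4 libraries only.

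The test was limma 3.58.1 in R 4.3.3 on log2(FPKM + 0.1), eBayes with a trend, for 12663 genes with a mean of at least 0.1 FPKM, with Benjamini-Hochberg adjustment. Fold changes on this scale understate those of low genes. Both this and the recovery of reads were tested on simulated data. Tables and figures used Python 3.11.15. Replicate numbers are those of the titles.

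Members and lists were chosen with earlier results of these data known. Every member is named. Values are given in full for the 6 largest differences of each compartment and the extremes of level, and for other lists the 2 largest differences and any call are named with at least the log2 fold change, other than in the marker lists of other cell types, which are given by their sums. For comparison other members and genes were named too, after their values were seen. Other settings tried were a pseudocount of 1 or 0.01, a minimum of 1 FPKM or none, rescaling to TPM, centring on the median, quantile normalization, robust eBayes, eBayes with no trend, blocking on the replicate number, and leaving out each library. No protein sequences were used here. Removal of the gene length trend (lowess, span 0.3) and limma voom on the solved reads were added after seeing the data.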

Additional observations from a re-analysis of the deposited data

How the results depend on the processing

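No synthetase was called under any of the 16 alternatives, and the smallest adjusted p of any member was 0.38, for RARS1 without fluoxetine replicate 2. Signs of small fold changes turned for up to 8 of the 35 members, under TPM, median centring and without PBS replicate 2. The cytosolic median of 0.02 became -0.03 under TPM and under quantile normalization and 0.05 under median centring. With single libraries left out it ranged from 0.01 to 0.04, the mitochondrial median from 0.01 to 0.11, and their difference from -0.09 to 0.01. That difference was also -0.09 under quantile normalization and -0.06 with the gene length trend removed. The 30 genes called over the whole table became 16 under quantile normalization, 56 with limma voom on the solved reads, and 2 and 3 without PBS replicates 1 and 2 and 9 and 12 without fluoxetine replicates 1 and 2, where the lone library of a group is assumed to vary like the others. limma called 0 genes without the filter (1175 with an unadjusted p under 0.05) and 0 without the trend (933). The replicate block gave 64 genes and none of the 35, and deviations from the group means correlated between libraries of the same number at 0.035 over all genes tested and at 0.101 over those with a mean of at least 10 FPKM, with too few pairs to take the numbers as a pairing. The causes of these shifts were not tested. Depth limits mainly FARS2 and PARS2, with as few as 394 and 511 reads.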
